A study of Mus musculus with 10 samples.

Results

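Iron and heme handling was followed through 10 genes measured in ARG1+ and ARG1- myeloid cells of the inflamed spinal cord. The genes were Slc48a1, Hmox1 and Blvrb for heme recycling, Fth1 and Ftl1 for iron storage, Tfrc, Slc11a1 and Slc11a2 for iron import, and Slc40a1 and Cp for iron export. They were selected by gene symbol from the 55487 genes of the count table, and all 10 were found and passed the expression filter, which kept 13740 genes. All cells came from 5 male Arg1tm1Lky mice on the C57BL/6 background, aged 8 to 12 weeks, with experimental autoimmune encephalomyelitis (EAE) at peak disease. Arg1tm1Lky is a reporter allele in which cells that transcribe Arg1 also make yellow fluorescent protein (YFP). From each spinal cord, viable CD3-Ly6G-CD45+CX3CR1+ cells were sorted into a YFP+ fraction (ARG1+, 200000 cells) and a YFP- fraction (ARG1-, 100000 cells), giving 5 libraries per group from the same animals (m2, m6, m234, m235 and m236). Comparing the fractions asks which transcripts differ with Arg1 expression among cells of the same tissue. Both groups carried the reporter and had EAE, and there was no healthy or reporter-free group among these libraries. By the study's own account the gate does not separate CNS-associated macrophages from monocyte-derived cells.

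Macrophages that engulf dying cells and debris take in heme and iron. Heme leaves the phagolysosome, is opened by heme oxygenase and yields iron, which is either held in ferritin cages built of heavy and light chains or exported through ferroportin. Several of these genes are also controlled after transcription by iron regulatory proteins, which bind a hairpin called the iron-responsive element. Bound in a 5′ untranslated region (UTR) it blocks translation, and bound in a 3′ UTR it protects the mRNA from decay, so the read counts described here measure mRNA and not the amount of ferritin, ferroportin or transferrin receptor protein.

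The hairpins are printed to show which transcripts hold a match to a strict form of the iron-responsive element. Transcripts of the GENCODE vM21 annotation (GRCm38) were searched on the sense strand for 27 bases made of a lower arm of 5, an unpaired C, an upper arm of 5 and the loop CAGTGN, with both arms pairing back, G-T pairs included, and at most 1 unpaired position, in the lower arm. Capitals mark the loop. Single matches lay in the 5′ UTR of Fth1 (chr19:9982733-9982759, plus strand), of Ftl1 (chr7:45459780-45459806, minus strand) and of Slc40a1 (chr1:45925466-45925492, minus strand), and 4 lay in the 3′ UTR of Tfrc (chr16:32631220-32631246, chr16:32631599-32631625, chr16:32631664-32631690 and chr16:32631711-32631737, plus strand).
Fth1 5′ UTR: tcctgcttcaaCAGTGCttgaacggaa
Ftl1 5′ UTR: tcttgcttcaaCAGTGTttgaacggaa
Slc40a1 5′ UTR: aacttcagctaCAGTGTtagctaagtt
Tfrc 3′ UTR, site 1: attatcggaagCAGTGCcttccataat
Tfrc 3′ UTR, site 2: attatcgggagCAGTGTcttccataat
Tfrc 3′ UTR, site 3: tatatcggagaCAGTGAtctccatatg
Tfrc 3′ UTR, site 4: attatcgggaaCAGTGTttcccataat
The same pattern occurred in a 5′ UTR of 6 (0.0274%) and in a 3′ UTR of 10 (0.0457%) of 21899 protein-coding genes. No match was found in the other 6 genes, which says only that this pattern is not in their annotated UTRs. Elements that depart from the pattern, such as those with an unpaired upper arm position, would be missed. Outside the 10 genes, 12 genes held a match and 8 of them were tested. Of these, Ftl1-ps1 was higher and Jaml was lower in ARG1+ cells, both named here after their values were seen.

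The libraries held 8396863 to 35455643 counts. The shallowest belonged to ARG1- cells of m234, and no other held fewer than 28212174. Arg1 itself, the gene behind the sort, was at 587 to 1047 CPM (counts per 1000000 counts of the TMM-scaled library) in ARG1+ and at 14.3 to 26.9 CPM in ARG1- libraries, a log2 fold change of 5.45 ± 0.21 (SE, n = 5 per group). Across all tested genes, edgeR called 1782 (13%) at a false discovery rate (FDR) below 0.05, with 937 (6.82%) of them raised and 845 (6.15%) reduced in ARG1+ cells. Scaling by total counts in place of TMM turned this split to 705 and 1281. With the animal added as a block, since both libraries of a number came from the same mouse, 2307 (16.8%) were higher and 2519 (18.3%) lower. The median log2 fold change of all tested genes was -0.0022.

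Against this background, 2 of the 10 genes, Slc48a1 and Ftl1, were higher in ARG1+ cells and none was lower by edgeR. At an unadjusted p below 0.05 edgeR gave 5 higher and 0 lower, and the count over all tested genes at that limit is not reported here. DESeq2 called 1276 of all 13740 tested genes higher and 1307 lower, among them 4 and 0 of the 10. By limma-trend 914 and 841 of all tested genes were called, among them 2 and 0 of the 10. With the animal block, which called 35.1% of all tested genes, 6 were higher (Slc48a1, Ftl1, Slc11a1, Hmox1, Fth1 and Blvrb), 1 was lower (Slc11a2), and Tfrc, Slc40a1 and Cp passed neither test. The median log2 fold change of the 10 genes was 0.25, and 7 of the 10 values were positive, as were 6817 of the 13740 values of all tested genes. Every difference was below 1 on the log2 scale except that of Slc40a1, which did not pass the test. When a change of more than 1 on the log2 scale was demanded beside the FDR, 0 of the 10 genes passed, as against 1.45% of all tested genes. In bulk libraries of sorted cells, fewer cells with a transcript and less transcript per cell cannot be told apart.

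**Figure D1:**
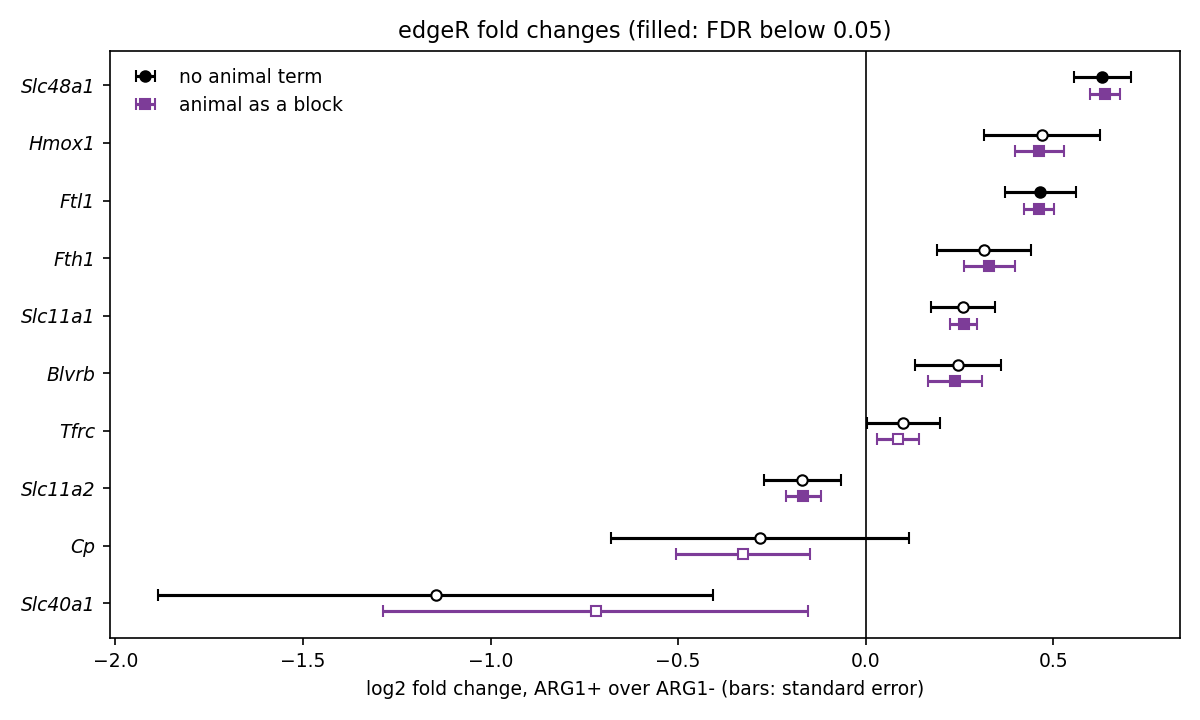
Log2 fold change of ARG1+ over ARG1- cells for the 10 genes (x axis), from edgeR without an animal term (circles) and with the animal as a block (squares). Bars are standard errors and filled symbols passed an FDR below 0.05: 2 of 10 without and 7 of 10 with the block. Of all tested genes 13% and 35.1% passed.

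The genes differed far more in level than between the groups. Per kilobase of annotated exon, ferritin heavy chain mRNA led with 7859 CPM per kb over the 10 libraries, followed by Ftl1 with 2183, Hmox1 with 429 and Slc11a1 with 184 CPM per kb. Blvrb (40.6), Slc48a1 (30.5), Slc11a2 (10.8) and Tfrc (9.12 CPM per kb) came next, and Slc40a1 (0.753) and Cp (0.567 CPM per kb) closed the order. The library ranges of neighbours did not overlap for Fth1 over Ftl1, Ftl1 over Hmox1, Hmox1 over Slc11a1, Slc11a1 over Blvrb, Slc48a1 over Slc11a2 and Tfrc over Slc40a1. They overlapped for Blvrb and Slc48a1, where Blvrb was above in 9 of 10 libraries, for Slc11a2 and Tfrc (8 of 10) and for Slc40a1 and Cp (4 of 10). The Ftl1 level counts only part of its reads, as described with the ferritins below.

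**Figure D2:**
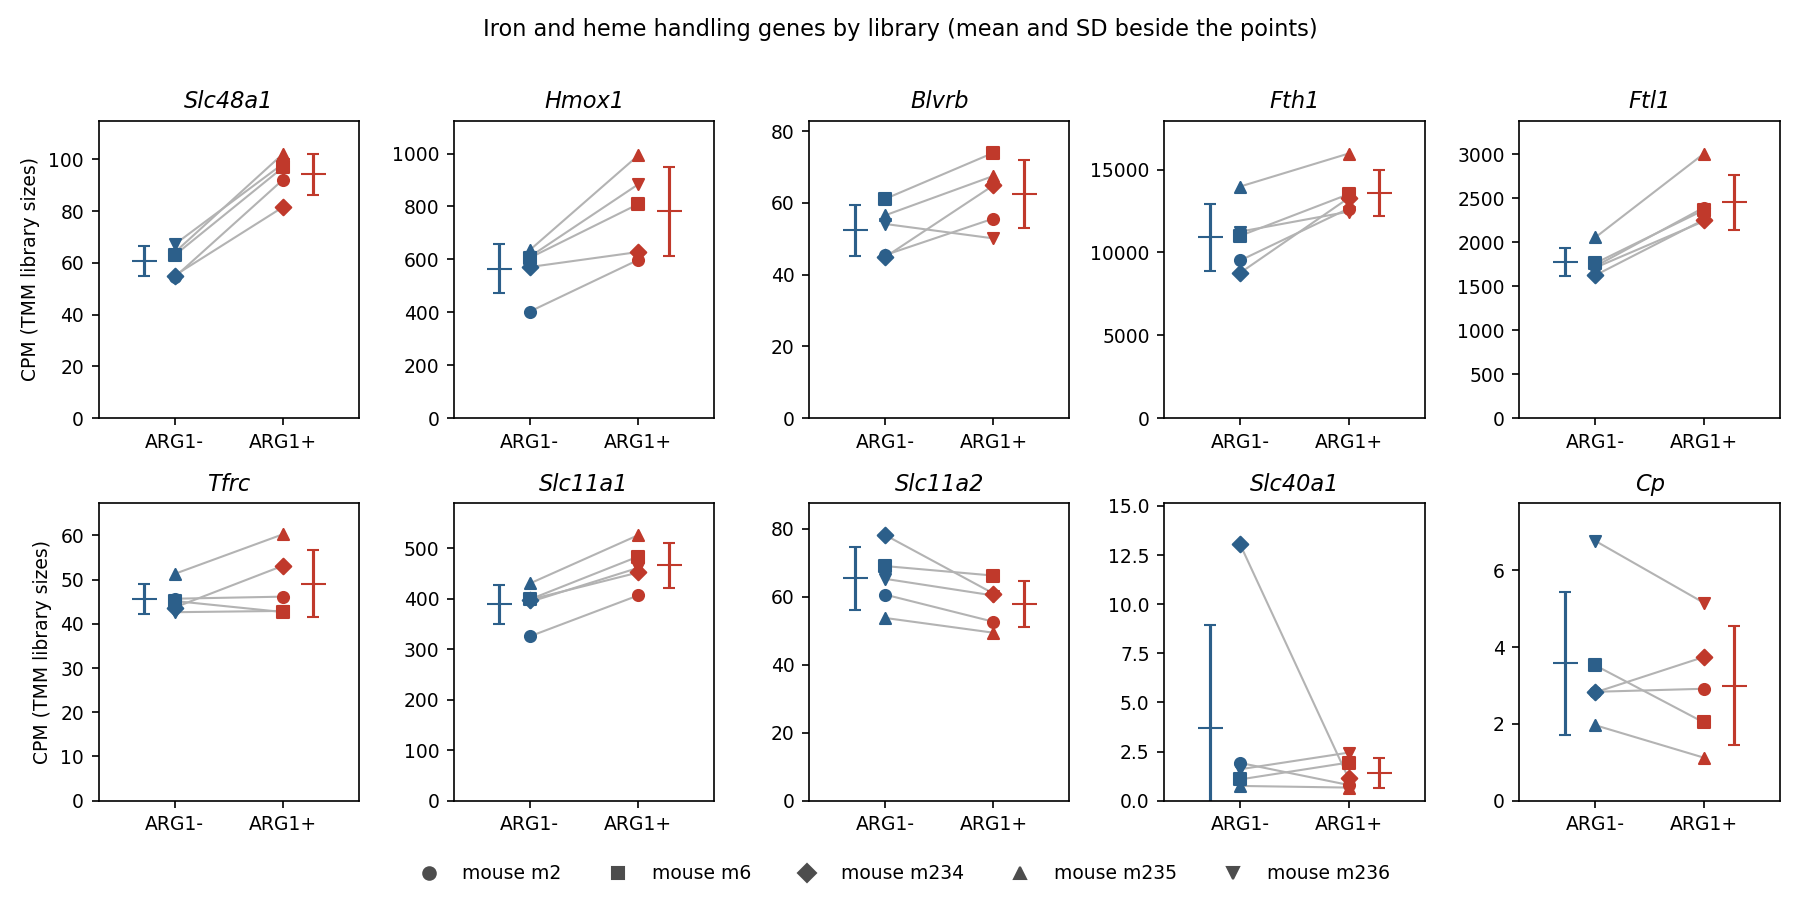
CPM (TMM library sizes) of each gene in the 5 ARG1- and the 5 ARG1+ libraries, with a symbol per mouse, a line joining both libraries of a mouse, and mean ± SD beside the points (y axes start at 0; the SD bar of Slc40a1 in ARG1- cells runs below 0). Slc48a1 and Ftl1 are the panels whose groups do not overlap, as was so for 11.3% of all tested genes in either direction. Slc40a1 in ARG1- cells of m234 stands alone at 13.04 CPM.

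Heme release from the phagolysosome was represented by Slc48a1 (ENSMUSG00000081534, chr15:97778520-97792692), which encodes the heme transporter HRG1 that moves heme into the cytosol. In ARG1+ cells it measured 92.1 (m2), 96.9 (m6), 81.6 (m234), 102 (m235) and 98.3 CPM (m236). In ARG1- cells it measured 54.4 (m2), 62.9 (m6), 55.1 (m234), 64.0 (m235) and 67.1 CPM (m236). The lowest ARG1+ library lay above the highest ARG1- library, a separation that 6.15% of all tested genes showed in this direction. The ARG1+ mean was 94.2 ± 7.92 and the ARG1- mean 60.7 ± 5.64 CPM (SD over 5 mice). The ratio was 1.55, or 0.63 ± 0.08 on the log2 scale (SE, edgeR FDR = 0.000513). It was the largest rise among the 10 genes that passed the test, and within single animals it ranged from 0.55 to 0.76 on the log2 scale. With the block the value was 0.64 ± 0.04 (FDR = 4.02e-06). Of its exon bases, 1.14% were covered by the antisense gene Hdac7.

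Hmox1 (ENSMUSG00000005413, chr8:75093621-75100589) encodes heme oxygenase 1, the inducible enzyme that opens the heme ring and frees its iron. It measured 598 (m2), 809 (m6), 628 (m234), 993 (m235) and 884 CPM (m236) in ARG1+ cells. In ARG1- cells it measured 403 (m2), 606 (m6), 571 (m234), 635 (m235) and 609.8 CPM (m236). The groups overlapped, since the ARG1+ libraries of m2 and m234 lay within the ARG1- range, although the ARG1+ library was the higher of the pair in 5 of 5 mice. On the log2 scale the groups differed by 0.47 ± 0.16 (SE, n = 5 per group) with an edgeR FDR of 0.0677, and with the animal block it was 0.46 ± 0.07 with an FDR of 0.000532. The difference within an animal was smallest in m234, at 0.14, and largest in m235, at 0.64 on the log2 scale.

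Blvrb (ENSMUSG00000040466, chr7:27447978-27466144) encodes biliverdin reductase B, which acts downstream of heme breakdown. It ranged from 50.1 to 74.0 CPM in ARG1+ and from 44.9 to 61.1 CPM in ARG1- cells. This came to a log2 fold change of 0.25 ± 0.11 (SE, n = 5 per group, edgeR FDR = 0.172) and 0.24 ± 0.07 with the block (FDR = 0.0272). In 4 of 5 mice the ARG1+ library was higher, and m236 went the other way with -0.11 on the log2 scale.

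Iron storage was represented by both ferritin chains. Fth1 (ENSMUSG00000024661, chr19:9980598-9985098), the heavy chain that oxidizes iron for storage, measured 12653 (m2), 13520.5 (m6), 13291 (m234), 15974 (m235) and 12465 CPM (m236) in ARG1+ cells. It measured 9519 (m2), 11007 (m6), 8771 (m234), 13982 (m235) and 11259.5 CPM (m236) in ARG1- cells. Only the ARG1- library of m235 reached into the ARG1+ range, and m235 also had the highest ARG1+ value. The log2 fold change was 0.32 ± 0.13 (SE, n = 5 per group, edgeR FDR = 0.113) and 0.33 ± 0.07 with the block (FDR = 0.00444), with the ARG1+ library higher in 5 of 5 mice. Without the ARG1- library of m235 the unblocked value was 0.43 (FDR = 0.0308), and without both libraries of m235 it was 0.36 (FDR = 0.0416).

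Ftl1 (ENSMUSG00000050708, chr7:45457944-45459884), the light chain that helps the iron core to form, measured 2393 (m2), 2365 (m6), 2255 (m234), 3005 (m235) and 2238 CPM (m236) in ARG1+ cells. It measured 1725 (m2), 1761 (m6), 1624 (m234), 2054 (m235) and 1710.2 CPM (m236) in ARG1- cells. All ARG1+ libraries lay above all ARG1- libraries, as they did for 6.15% of all tested genes. The means of 2451 ± 317 and 1775 ± 164 CPM (SD over 5 mice) differed by 0.47 ± 0.10 on the log2 scale (SE, edgeR FDR = 0.00911), and by 0.46 ± 0.04 with the block (FDR = 2.95e-05). Within animals the difference ranged from 0.39 to 0.55, the narrowest span after that of Slc11a1. Without both libraries of m2 or of m6 the unblocked FDR was 0.052 and 0.0556, with values of 0.46 and 0.48.

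Reads of Ftl1 cannot be assigned to that gene alone. Of its 50-base stretches, the read length here, 58.4% also occurred in another annotated gene, 47.3% in Ftl1-ps1. The antisense gene Gm10252 covered 36.7% of the Ftl1 exon bases, and Gm22133, on the same strand, covered 11.3%. The 7 genes that shared at least 5% of these stretches held 695992 counts over the 10 libraries, beside 620997 of Ftl1 itself. Ftl1-ps1 alone averaged 2001 ± 229 CPM with ARG1 and 1422 ± 112 CPM without it (SD over 5 mice), which is 0.49 higher on the log2 scale (edgeR FDR = 0.00432). With all 7 summed into Ftl1 the log2 fold change was 0.48 ± 0.09 (FDR = 0.00742). For Fth1 the shared part was 1.59%.

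The balance of the 2 chains, as read from the Fth1 and Ftl1 counts, passed no test for a difference between the groups. The Ftl1 counts were 47.2% of their sum with the 7 near copies, so the ratio can miss light chain reads. The log2 ratio of Fth1 to Ftl1 counts, which no library scaling can change, was 2.47 ± 0.07 for ARG1+ and 2.61 ± 0.15 for ARG1- libraries (SD over 5 mice). The difference of -0.13 gave p = 0.119 in a 2-sided exact permutation test, whose smallest possible p was 0.00794. The ratio was lower in ARG1+ cells in 4 of 5 mice and ranged within mice from -0.36 to 0.13, and flipping signs within animals gave p = 0.188 (exact, 2-sided), a test that 5 pairs cannot bring below 0.0625.

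**Figure D3:**
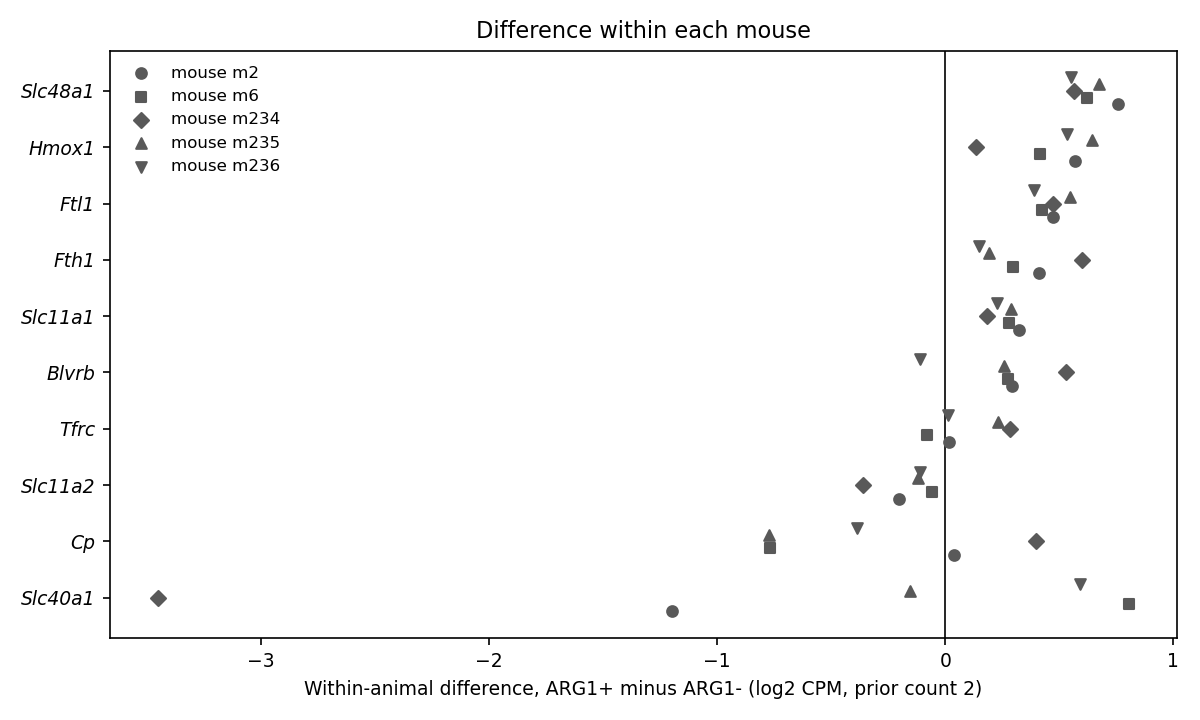
Difference of ARG1+ minus ARG1- within each of the 5 mice (x axis, log2 CPM with a prior count of 2) for the 10 genes, with a symbol per mouse. The 5 points lie above 0 for Slc48a1, Hmox1, Ftl1, Fth1 and Slc11a1 and below 0 for Slc11a2, and the points of Slc40a1 spread from -3.45 to 0.80.

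Iron import was represented by the transferrin receptor and by both transporters of the NRAMP family. Tfrc (ENSMUSG00000022797, chr16:32608920-32632794), which takes up transferrin-bound iron, ranged from 42.7 to 60.3 CPM in ARG1+ and from 42.6 to 51.3 CPM in ARG1- cells. The estimate on the log2 scale was 0.10 ± 0.10 (SE, n = 5 per group, edgeR FDR = 0.521), with a 95% interval from -0.11 to 0.31, and 0.09 ± 0.06 with the block (FDR = 0.27). The differences within mice ran from -0.08 in m6 to 0.28 in m234.

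Slc11a1 (ENSMUSG00000026177, chr1:74375195-74386062) encodes NRAMP1, a metal transporter of the phagosome membrane of macrophages. C57BL/6 mice carry a loss-of-function allele of this gene, so its mRNA does not stand for transport. It measured 406 (m2), 483 (m6), 452 (m234), 526 (m235) and 461 CPM (m236) in ARG1+ cells. In ARG1- cells it measured 325 (m2), 398 (m6), 398 (m234), 430.0 (m235) and 393 CPM (m236). The groups overlapped through m2, whose ARG1+ value lay below the ARG1- value of m235. The log2 fold change was 0.26 ± 0.08 (SE, n = 5 per group) with an edgeR FDR of 0.0652, and 0.26 ± 0.04 with an FDR of 0.000439 with the block. All 5 mice gave a positive difference, between 0.18 and 0.32, the narrowest span of the 10 genes.

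Slc11a2 (ENSMUSG00000023030, chr15:100387898-100425072) encodes DMT1, which carries ferrous iron across the endosomal membrane. It measured 52.7 (m2), 66.3 (m6), 61.0 (m234), 49.5 (m235) and 60.4 CPM (m236) in ARG1+ cells. In ARG1- cells it measured 60.7 (m2), 69.1 (m6), 78.2 (m234), 53.8 (m235) and 65.3 CPM (m236). The groups overlapped widely, yet the ARG1+ library was the lower of the pair in 5 of 5 mice. This gave a log2 fold change of -0.17 ± 0.10 (SE, n = 5 per group, edgeR FDR = 0.293) and -0.17 ± 0.05 with the block (FDR = 0.0188). The differences within mice were small, from -0.36 in m234 to -0.06 in m6. Of its stretches, 4.27% also occurred in another annotated gene, 4.03% in the antisense gene Gm5475.

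Iron export was weakly represented. Slc40a1 (ENSMUSG00000025993, chr1:45908068-45926523) encodes ferroportin, the exporter of cellular iron, and held 215 counts in the ARG1+ and 280 in the ARG1- libraries in all. It measured 0.798 (m2), 1.94 (m6), 1.13 (m234), 0.666 (m235) and 2.44 CPM (m236) in ARG1+ cells. In ARG1- cells it measured 1.92 (m2), 1.08 (m6), 13.04 (m234), 0.750 (m235) and 1.60 CPM (m236). The ARG1- library of m234, with 111 counts, stood apart from all others. The log2 fold change of -1.15 ± 0.74 (SE, n = 5 per group, edgeR FDR = 0.323; -0.72 ± 0.57 and FDR = 0.356 with the block) rested on that library, and without it the value was 0.06 (FDR = 0.941). The same library had the highest sum of the microglia markers, 2650 CPM beside 808 to 1448 CPM in the other ARG1- libraries. It also had the lowest sum of the border-associated macrophage markers among the ARG1- libraries, 414 CPM, most of it from F13a1. The part of either sum in the Slc40a1 value was not tested.

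Cp (ENSMUSG00000003617, chr3:19957054-20009145) encodes ceruloplasmin, the copper ferroxidase that works with ferroportin. It ranged from 1.12 to 5.15 CPM in ARG1+ and from 1.96 to 6.76 CPM in ARG1- cells. The highest library of either group was that of m236 and the lowest that of m235. The log2 fold change was -0.28 ± 0.40 (SE, n = 5 per group, edgeR FDR = 0.677), and -0.33 ± 0.18 with the block (FDR = 0.186). Without both libraries of m234 the blocked value was -0.45 ± 0.15 (FDR = 0.0297), and without the ARG1- library of m236 the unblocked value was 0.10 (FDR = 0.893). The antisense gene Hps3 covered 1.86% of its exon bases.

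The wider pathway was covered by 78 further genes in 8 lists, of which 61 were tested. Of these, 8 were higher and 4 lower in ARG1+ cells, 19.7% of those tested beside the 13% of all genes. With the block 20 were higher and 10 lower, beside 16.8% and 18.3% of all tested genes. Their median log2 fold change was 0.08.

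In the list of heme and hemoglobin uptake, transport and breakdown, 2 of 8 tested genes were higher, beside 6.82% of all tested genes. Lrp1, the receptor for heme-hemopexin complexes among many ligands and the most abundant gene of the list, averaged 3061 ± 349.6 CPM with and 2239 ± 156 CPM without ARG1 (SD over 5 mice), a log2 difference of 0.45 ± 0.09 (SE, edgeR FDR = 0.00645). Flvcr1, known as a heme exporter of the plasma membrane, measured 58.9 ± 5.28 and 44.8 ± 4.05 CPM (0.39 ± 0.08, FDR = 0.00736). With the block, which called 16.8% of all tested genes higher, 6 of the 8 were higher. Cd163, the hemoglobin scavenger receptor, was at 0.130 CPM or less in all 10 libraries.

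In the list of iron uptake and reduction, 3 of 7 tested genes were higher and 2 lower, beside 6.82% and 6.15% of all tested genes. With the block 3 were higher and 3 lower, beside 16.8% and 18.3% of all tested genes. Trf, which encodes transferrin, rose from 567 ± 106 CPM without to 833 ± 182 CPM with ARG1 (SD over 5 mice), a log2 difference of 0.56 ± 0.16 (SE, edgeR FDR = 0.0427). Steap3, the endosomal ferrireductase that hands iron to DMT1, was at 10.6 ± 1.501 against 7.06 ± 0.76 CPM (0.57 ± 0.12, FDR = 0.00859), and Mcoln1, a lysosomal cation channel, gave 0.19 ± 0.05 (FDR = 0.0346). Lcn2, which binds iron-loaded siderophores, was lower at 1.93 ± 0.788 against 5.27 ± 1.95 CPM (-1.48 ± 0.32, FDR = 0.0114), and Slc39a14, an importer of iron outside transferrin, gave -0.34 ± 0.10 (FDR = 0.042). Slc22a17, a receptor for the Lcn2 protein, had the largest difference of the list with -1.63 ± 0.51 (FDR = 0.0551).

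In the list of iron storage and ferritin turnover, Ncoa4 was higher, Pcbp1 was lower and Pcbp2 passed no test. Ncoa4, the receptor that delivers ferritin to the lysosome for iron release, measured 142 to 179 CPM in ARG1+ and 84.3 to 121 CPM in ARG1- cells (log2 fold change 0.56 ± 0.09, edgeR FDR = 0.00324). Its groups did not overlap, a separation that 6.15% of all tested genes showed in this direction. Pcbp1, a chaperone that loads iron into ferritin, averaged 264 ± 11.7 and 299.8 ± 9.73 CPM (SD over 5 mice; -0.19 ± 0.05, FDR = 0.0315). Pcbp2, the most abundant of the list, gave -0.05 ± 0.06 (FDR = 0.585).

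Among the iron regulatory proteins and iron sensors, 1 of 6 tested genes was higher, and 4 were with the block, which called 16.8% of all tested genes higher. Aco1, which encodes iron regulatory protein 1, gave a log2 fold change of 0.18 ± 0.05 (SE, n = 5 per group, edgeR FDR = 0.042). Fbxl5, the iron-sensing subunit that marks iron regulatory proteins for degradation and the most abundant and most different of the list, measured 405 ± 107 and 316 ± 85.5 CPM (0.36 ± 0.19, FDR = 0.235, and 0.36 with FDR = 0.00771 with the block). Hfe, the only tested gene of the export and hepcidin list, gave 0.34 ± 0.14 (FDR = 0.118, and 0.34 with FDR = 0.0015 with the block), while Hamp, the hepcidin gene, was at 0.118 CPM or less in all libraries.

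In heme synthesis 1 of 11 tested genes was lower, Slc25a38, the mitochondrial glycine carrier, with -0.41 ± 0.12 (SE, n = 5 per group, edgeR FDR = 0.0384). It had the largest difference of the list. Alas1, the rate-limiting enzyme outside the erythroid lineage and the most abundant of the list, gave 0.05 ± 0.09 (FDR = 0.744). Among 19 tested genes of mitochondrial iron and iron-sulfur assembly, Cisd1, an iron-sulfur protein of the outer mitochondrial membrane, was higher with 0.36 ± 0.09 (FDR = 0.0259) and had the largest difference. Slc25a37, the mitochondrial iron importer and the most abundant, gave 0.05 ± 0.12 (FDR = 0.834).

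Of the transcriptional regulators of heme and iron genes, 0 of 6 tested passed the unblocked edgeR test, and all 6 values were negative. Bach1 and Mafk were lower at an unadjusted p below 0.05, 2 of the 6 were lower by DESeq2 and 1 by limma-trend. The log2 fold change was -0.34 ± 0.10 for Bach1, the heme-sensing repressor of Hmox1 (SE, n = 5 per group, edgeR FDR = 0.0518, and -0.34 with FDR = 0.000671 with the block). Nfe2l2, which encodes the activator NRF2 and was the most abundant of the list, gave -0.11 ± 0.06 (FDR = 0.281). With the block, which called 18.3% of all tested genes lower, 4 of the 6 were lower, Bach1 and the small Maf genes Mafk, Maff and Mafg.

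**Figure D4:**
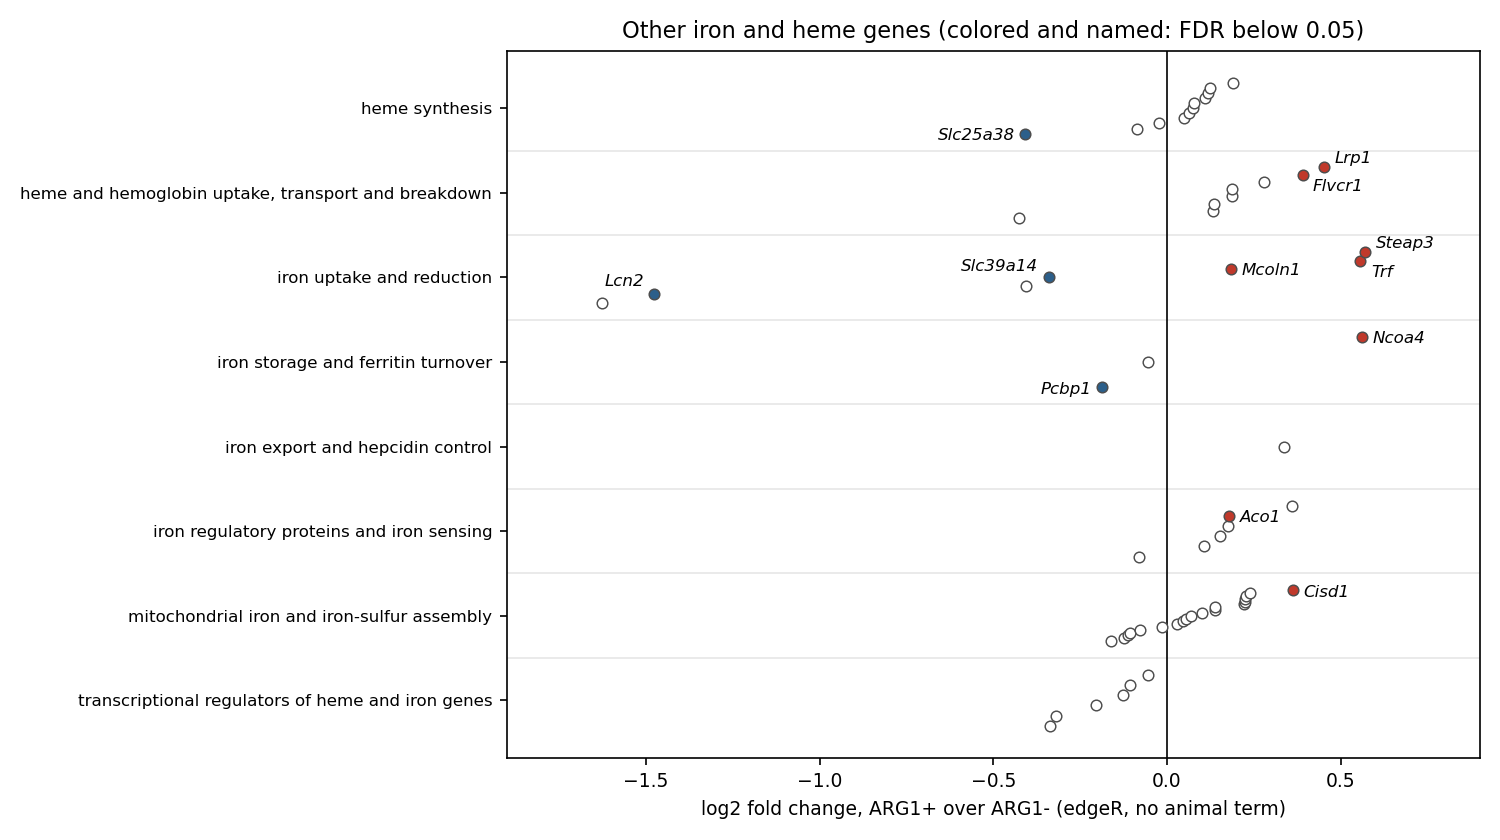
Log2 fold change of ARG1+ over ARG1- cells (x axis, edgeR without an animal term) for the 61 tested genes of 8 further iron and heme lists (y axis). Colored and named points passed an FDR below 0.05, 8 higher and 4 lower, and all 6 transcriptional regulators lie below 0 without passing.

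The 5 tested genes whose differences within the 5 mice lay nearest to those of Slc48a1 were Naglu, Rgs1, Psap, Crtap and Creg1, at a mean absolute distance of 0.0379 to 0.0534 on the log2 scale. For Ftl1 they were Gtf3c3, Slc38a7, Fn3krp, Ftl1-ps1 and Acaa2 (0.0292 to 0.0492). For Slc11a1 they were Colgalt1, Arhgap21, Gm12350, Erlin2 and Wsb2 (0.0168 to 0.0308). These are descriptions over 5 animals, and Ftl1-ps1 shares reads with Ftl1.

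Markers of several cell types moved with the sort, and their part in the values above was not tested. The 8 defining mononuclear phagocyte markers were present in all libraries, with 3 of 8 higher in ARG1+ cells (Itgam, Lyz2 and Cd68) and 0 lower by edgeR without the block (summed CPM 13450 to 18244 in ARG1+ and 11503 to 13891 in ARG1- cells). With the block, which called 35.1% of all tested genes, 4 were higher and 4 lower, the latter being Ptprc, Cx3cr1, Csf1r and Fcgr1. At an unadjusted p below 0.05, 2 of the 8 were lower, as was 1 by DESeq2 and 0 by limma-trend. Of the microglia markers 0 of 8 passed the unblocked edgeR test, 4 were lower at an unadjusted p below 0.05, 1 by DESeq2, 0 by limma-trend and 6 with the block, with sums of 751 to 1124 and 808 to 2650 CPM. Of the border-associated and resident macrophage markers, 2 of 4 tested were higher, Mrc1 and Pf4, with sums of 807 to 1609 and 414 to 979 CPM, while Lyve1, Cd163, Cbr2 and Folr2 did not pass the filter. With the block, which called 16.8% of all tested genes higher, F13a1 and Siglec1 were higher too, making 4 of 4. Most of these sums came from F13a1, at 1019 ± 238 and 594 ± 193 CPM (SD over 5 mice). Of the monocyte markers Ccr2, Plac8 and Vcan were lower, with list sums of 2866 to 8486 and 2977 to 7927 CPM. Of the dendritic cell markers 4 of 5 tested were lower, with sums of 9.26 to 23.9 and 20.5 to 39.6 CPM.

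Red cell RNA was near 0. The 8 erythroid markers found summed to 5.57 to 11.1 CPM in ARG1+ and 4.89 to 22.2 CPM in ARG1- cells. Of the 4 tested, 0 passed the unblocked edgeR test or limma-trend. At an unadjusted p below 0.05 and by DESeq2 1 was lower, and with the block 2 were lower. No T cell marker passed the filter (sums of 0.935 to 1.83 and 0.470 to 2.33 CPM). Of the B cell markers 2 of 3 tested were lower (5.27 to 16.1 and 28.5 to 62.7 CPM), and of the neutrophil markers 1 of 3 tested, S100a9, was lower, while S100a8 and Mmp8 were higher with the block (131 to 321 and 64.7 to 185 CPM), with Ly6g at 0.129 CPM or less. Of 5 tested oligodendrocyte markers 0 passed the unblocked edgeR test or limma-trend (147 to 179.8 and 137 to 197 CPM). At an unadjusted p below 0.05, by DESeq2 and with the block, 1 was higher and 1 lower. Among astrocyte markers, Gja1 of 4 tested was higher (16.6 to 27.7 and 19.97 to 31.0 CPM), and among endothelial markers Flt1 of 3 tested was lower (68.2 to 125 and 109 to 144 CPM).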

How the data were processed

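Bulk RNA sequencing of 10 libraries was analysed: ARG1+ and ARG1- cells of 5 mice. The authors sequenced directional libraries as 50-base single reads, aligned them with STAR (2.7.10b in the submitters' processing notes) to GRCm38 and counted reads per transcript, summed to genes of Ensembl annotation, as the deposited raw counts. The sources used here do not say whether reads were counted by strand. From these counts, the genes that reached over 1 CPM in 3 or more libraries entered edgeR 4.0.16 (R 4.3.3; TMM, quasi-likelihood F test, Benjamini-Hochberg adjustment over all tested genes, call at FDR below 0.05). The SE of a fold change was taken from the F statistic. Alternatives were RLE factors, total counts, no filter, DESeq2 1.42.0, limma-trend (limma 3.58.1, prior count 2), the animal as a block, a fold limit and leaving out each library or animal. The fits were tested on simulated data. Depth was 8396863 to 35455643 counts.

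The replicate number marks the animal: deviations from the group means correlated at 0.36 to 0.66 in the 5 pairs of libraries from the same animal and at -0.37 to 0.07 in the 20 pairs from different animals. Counts of libraries of the same group differed by more than sampling noise in all 20 pairs (chi-square over its degrees of freedom, 17.8 to 71.8).

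The 10 genes, the other lists and the tests were chosen with earlier results of these data known. Named were all 10 genes, and of each further list the most abundant gene, the gene with the largest difference and up to 4 called genes by FDR. Also named were the 5 nearest genes of the 3 members with the lowest FDR, and the marker lists by their defining genes and sums. Cd163, Hamp, Jaml, Ftl1-ps1 and the genes called only with the block were named after their values were seen. Some single markers are not reported here. Levels per kb used exon lengths of GENCODE vM21, and sequences came from its transcripts. No protein sequence was used here. Summing Ftl1 with its near copies, and the block without m234, were chosen after seeing the data.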

Additional observations from a re-analysis of the deposited data

Results flagged for a closer look

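In each group of 5 libraries, the highest or lowest value was set against the rest by Dixon's test at the 95% level, in 46 groups of values (the 10 genes, the ferritin ratio and 12 marker lists), of which chance flags about 1 in 20. Slc40a1 stood out in the ARG1- library of m234, at 13.04 CPM with 1.92 CPM as the next value, and this library decided its fold change. Hmox1 stood out in the ARG1- library of m2, at 403 CPM with 571 CPM next, and the ARG1+ library of the same mouse was also the lowest of its group. Ftl1 stood out in the ARG1+ library of m235, at 3005 CPM with 2393 CPM next, and the ARG1- library of that mouse was the highest of its group. The summed oligodendrocyte markers stood out in the ARG1- library of m234, at 197 CPM with 153 CPM next.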

How the results depend on the processing

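The fold changes of Slc48a1, Hmox1, Fth1, Ftl1, Tfrc, Slc11a1, Slc11a2 and Blvrb kept their direction under every alternative run, and Slc48a1 also its call except under the fold limit. Low counts limit the precision of Slc40a1 and Cp. The cause was not tested for the changes below that follow from another test, scaling or left-out library.

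DESeq2 called 4 of the 10 genes higher (Hmox1 at 0.47 and Slc11a1 at 0.26 on the log2 scale were added), 7 of the other iron and heme genes lower and 1307 of all genes lower. Without the filter on low counts Hmox1 passed at 0.48. Under total counts 5 other iron genes were higher and 7 lower, and 1281 of all genes were lower. With the fold limit 0 of the 10 genes were higher, 0 of the other iron genes were higher and 1 (Lcn2) was lower, and 77 and 122 of all genes were called.

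With the replicate block, which is the animal, 6 of the 10 genes were higher and 1 lower, 20 and 10 of the other iron genes, and 2307 and 2519 of all genes. The genes added were Hmox1 (0.46), Fth1 (0.33), Slc11a1 (0.26), Blvrb (0.24) and Slc11a2 (-0.17), and the block changed no other call of the 10 genes or of the ferritin ratio (-0.13). In the blocked fit without m234, 6 and 2 of the 10, 22 and 11 of the other iron genes, and 2706 and 2823 of all genes were called, with Hmox1 at 0.54, Fth1 at 0.26, Slc11a1 at 0.28, Blvrb at 0.18, Slc11a2 at -0.12 and Cp at -0.45, and Slc40a1 reversed to 0.10.

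Leaving out a library or an animal in turn gave 1 to 4 of the 10 genes higher and 0 lower, with 1 without the animal m2 or m6 and 4 without the ARG1- library of m235. It gave 3 to 8 other iron genes higher and 0 to 4 lower, with 3 and 0 without the animal m6, and 360 to 1037 of all genes higher and 284 to 911 lower, with the lowest of both again without m6. The fold changes ranged from 0.37 to 0.55 for Hmox1, which passed without the ARG1+ library of m2 or of m234, and from 0.25 to 0.43 for Fth1. They ranged from 0.38 to 0.53 for Ftl1 and from 0.20 to 0.30 for Slc11a1, which passed without the ARG1- library of m235. Slc40a1 ranged from -1.66 to 0.12, reversed to 0.06 without the ARG1- library of m234 and to 0.12 without that animal, and Cp ranged from -0.57 to 0.10, reversed to 0.10 without the ARG1- library of m236.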
